A study of Mus musculus with 6 samples.

Results

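The neurotrophin and GDNF (glial cell line-derived neurotrophic factor) genes described here are 8: the ligand genes Bdnf, Ntf3 and Gdnf, and the receptor genes Ntrk2, Ntrk3, Gfra1, Gfra2 and Ret. They were chosen by symbol from the 45777 genes of the deposited count table, each matched 1 row, and 7 of the 8 passed the filter on low counts. RNA came from the striatum of 6-week-old offspring of the outbred ICR mouse strain. In 3 animals the sire had received methylphenidate, a blocker of the dopamine and noradrenaline transporters, at 15 mg/kg, and in the other 3 it had received saline at 10 mL/kg. In both groups the sires were 6 weeks old at treatment, were injected subcutaneously on 21 consecutive days and were then mated with females that got no drug, so the offspring themselves were untreated. The labels list females and males in each group but tie no column of the table to a sex. How many sires and litters the animals came from is not stated in the labels, and the tests treated the 6 samples as independent. If some animals share a sire or litter, the p-values may be too small for an effect of the sire's treatment. They do not extend to other sires.

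Neurotrophins are secreted as precursors and bind receptor tyrosine kinases of the Trk family. Brain-derived neurotrophic factor (Bdnf) binds TrkB (Ntrk2), and neurotrophin-3 (Ntf3) binds TrkC (Ntrk3). Members of the GDNF family bind a co-receptor anchored to the membrane, GFRalpha1 (Gfra1) for GDNF and GFRalpha2 (Gfra2) for neurturin, and the pair then engages the kinase Ret. Much of the BDNF protein of the striatum is known to be made by cortical neurons and carried there along their axons, and striatal GDNF is known to come largely from parvalbumin interneurons and to act on dopamine neurons.

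Bdnf is read from several promoters, and a count per gene adds up the transcripts of all of them. The RefSeq promoter table (GRCm38.p6, the assembly that mm10 names) held 13 windows of 300 bases for 5 of the 8 genes, 7 of them for Bdnf. The core of the cyclic AMP response element, TGACG on either strand, is a motif bound by the activity-regulated factor CREB, and it was looked for in each window. It occurred in 2 of the 13 windows, 1 of Bdnf and 1 of Gdnf, against 20.8% of all 32851 windows. The full palindrome TGACGTCA, which contains the core, was in none of the 13 and in 1.79% of all windows. These 2 windows are shown because they are the ones that hold the core, in capitals as its reverse complement CGTCA. Each runs from 250 bases before the start site to 50 after it, on the plus strand, at chr2:109692186-109692485 for Bdnf and chr15:7809798-7810097 for Gdnf. The match begins at position -35 in Bdnf and -50 in Gdnf relative to the start site.
Bdnf: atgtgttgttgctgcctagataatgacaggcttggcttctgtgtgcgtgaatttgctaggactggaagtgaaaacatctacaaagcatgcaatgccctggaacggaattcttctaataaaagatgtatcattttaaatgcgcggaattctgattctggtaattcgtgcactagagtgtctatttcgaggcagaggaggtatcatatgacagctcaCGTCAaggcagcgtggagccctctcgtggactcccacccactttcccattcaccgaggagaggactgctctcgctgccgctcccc
Gdnf: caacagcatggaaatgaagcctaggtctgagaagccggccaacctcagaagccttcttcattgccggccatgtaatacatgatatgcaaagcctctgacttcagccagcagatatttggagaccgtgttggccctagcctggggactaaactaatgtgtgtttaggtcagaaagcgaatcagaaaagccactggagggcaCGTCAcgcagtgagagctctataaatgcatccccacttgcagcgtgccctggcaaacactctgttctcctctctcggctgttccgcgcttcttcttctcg
A match describes these letters and not a bound site. Which Bdnf promoter gave the reads cannot be read from these counts.

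Total counts lay between 31360042 and 38844724 per library. Libraries are named by group and column number, S3, S4 and S5 for the saline-sired and M2, M4 and M6 for the methylphenidate-sired animals. Levels are CPM, a library's counts scaled to a common total, after adjustment of the library sizes by TMM (trimmed mean of M values). The medium spiny neuron markers, which define the striatum, summed to 10790, 11460 and 11510 CPM in S3, S4 and S5 and 10110, 10070 and 9029 in M2, M4 and M6, and none of the 12 was at 0. Their groups did not overlap, and all 12 fold changes were negative with a median log2 fold change of -0.21. With edgeR, 0 of these 12, of the cortical and of the choroid plexus markers below had an adjusted p under 0.05, against 0.0224% of all genes. At an unadjusted p under 0.05 there were 9 of 12 medium spiny neuron, 9 of 10 cortical and 8 of 9 tested choroid plexus markers, against 9.02% of all genes. The 10 cortical excitatory neuron markers summed to 1490 to 1912 CPM in the saline-sired group and to 2129 to 2278 in the methylphenidate-sired group, with all 10 fold changes positive and a median log2 fold change of 0.86. Most of each sum was Nrgn, at 999.5, 1164 and 1188 CPM in S3, S4 and S5 and 1257, 1298 and 1314 in M2, M4 and M6. The mean log2 level, in which each of the 10 markers counts equally, was -0.301, -1.053 and 0.118 in S3, S4 and S5. In M2, M4 and M6 this level, centred over the 6 libraries, was 0.293, 0.409 and 0.535. The 10 choroid plexus markers summed to 2120, 371.7 and 30.98 CPM in S3, S4 and S5 and to 37.72 to 87.39 in M2, M4 and M6, so that S5 lay below all 3 and the groups overlapped. The 11 activity-induced genes summed to 368.9 to 745.8 CPM in the saline-sired and 647.1 to 1272 in the methylphenidate-sired group, which overlap. All 11 fold changes were positive, with a median log2 fold change of 0.68. With edgeR, 0 of these 11 had an adjusted p under 0.05. At an unadjusted p under 0.05 there were 4 of 11, against 9.02% of all genes. In bulk tissue, a change in the share of a cell type and a change in RNA per cell cannot be told apart.

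**Figure D1:**
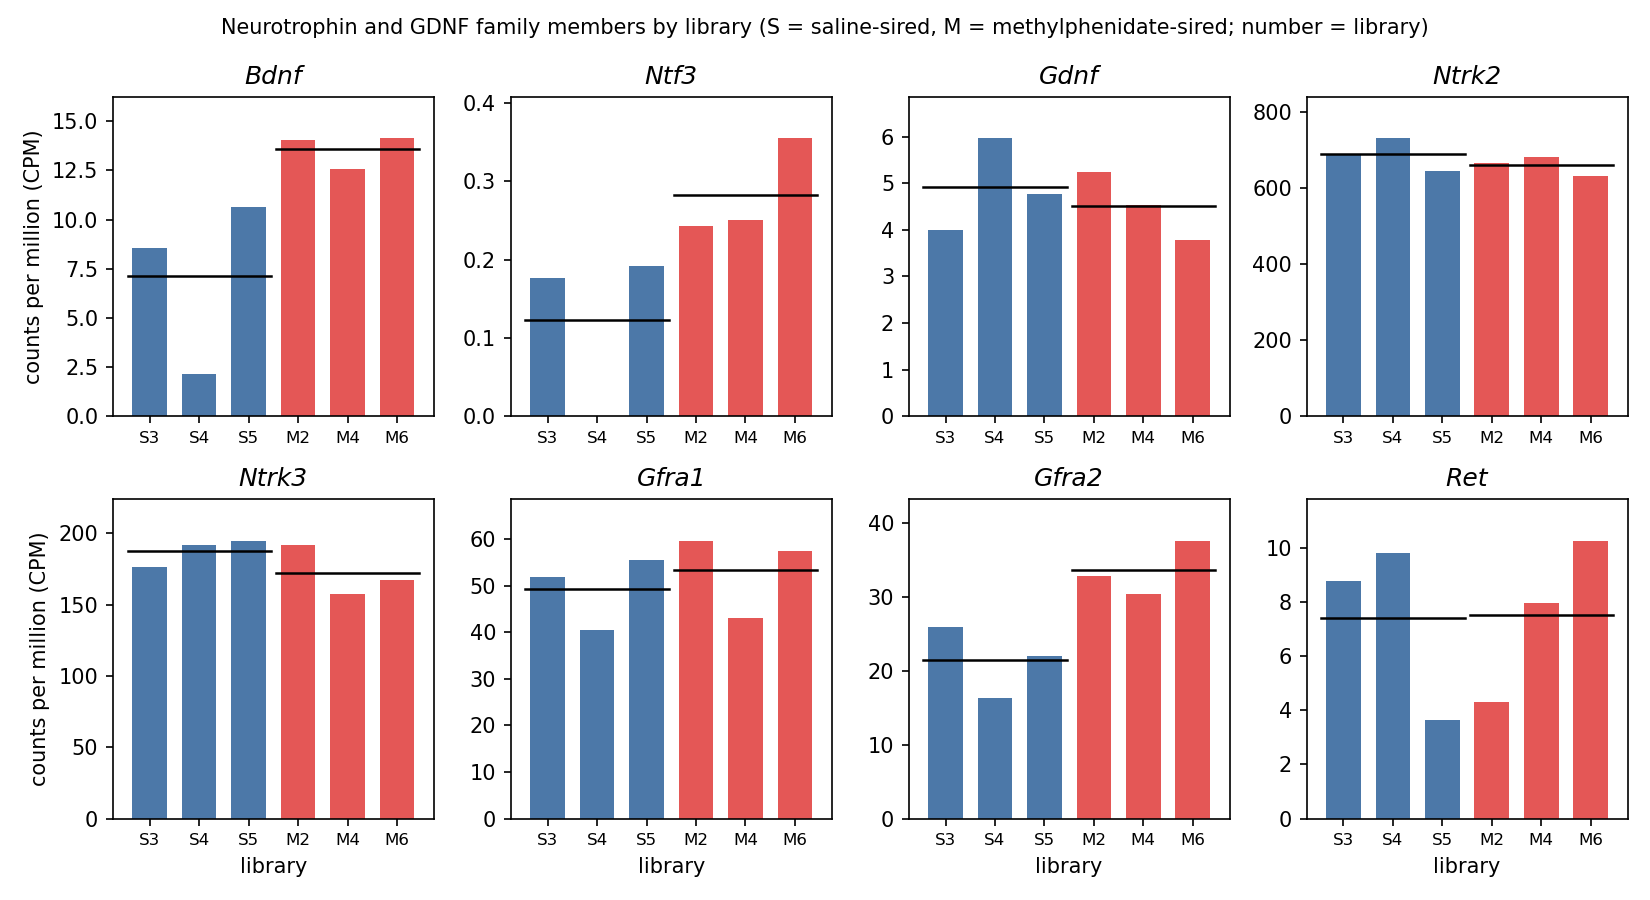
CPM of each of the 8 genes (vertical axes, from 0) in the 6 libraries (horizontal axes), with bars coloured by group and black lines at the group means. Bdnf, Ntf3 and Gfra2 are higher in every methylphenidate-sired library than in every saline-sired one, Bdnf is lowest in S4 at 2.17 CPM, and Ret is low in S5 and M2.

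None of the 7 genes tested passed the comparison of the groups, which asked whether striatal expression differed with the sire's treatment. With edgeR, 0 of 7 had an adjusted p below the threshold of 0.05 (adjustment over 17874 genes), against a background of 0.0224% of all genes. At an unadjusted p under 0.05 there was 1, Gfra2, against 9.02% of all genes. DESeq2 called 1, also Gfra2, against 0.968% of all genes. The limma-voom fit called 0, with 2 at an unadjusted p under 0.05 (Bdnf and Gfra2), against 9.23% of all genes by that tool. In 2 of the 7, Bdnf and Gfra2, every methylphenidate-sired library lay above every saline-sired one, against 7.84% of all genes with that order, and 0 of 7 had the reverse order, against 7.01%. The median log2 fold change (methylphenidate-sired minus saline-sired) was 0.02 over the 7 and -0.01 over all genes tested, with 4 of the 7 positive against 47% of all genes, and 3 negative against 53%.

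The gene with the lowest p was Gfra2 (Gene ID 14586, chromosome 14, 70890107 to 70979840, plus strand), the co-receptor gene that gives Ret its preference for neurturin. Its counts were 1030, 519 and 683 in S3, S4 and S5 and 1077, 972 and 1270 in M2, M4 and M6. On the CPM scale these were 25.9, 16.3 and 21.9 against 32.8, 30.4 and 37.6. The groups did not overlap, and the closest values were those of S3 and M4. The means were 21.4 ± 4.83 and 33.6 ± 3.65 CPM (SD, n = 3 per group), a log2 fold change of 0.65 (SE 0.16, 95% interval 0.28 to 1.02, edgeR unadjusted p = 0.00358, adjusted p = 0.419). DESeq2 gave 0.65 with an adjusted p of 0.0139. When the fit took the level of the cortical markers into account, the edgeR value was 0.29 (SE 0.21, edgeR unadjusted p = 0.202, adjusted p = 0.994). That level does not overlap between the groups, so this fit cannot tell it apart from the sire's treatment. Over the 14 alternatives the Gfra2 log2 fold change lay between 0.29 and 0.81 and its adjusted p between 0.0139 (DESeq2) and 0.994 (edgeR). The ratio of Gfra2 to Gfra1 counts, free of library scaling, was 0.501, 0.403 and 0.394 in S3, S4 and S5 and 0.549, 0.705 and 0.653 in M2, M4 and M6, again with no overlap. This ratio and the others below were chosen after the values were seen and were not tested.

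Gfra1 (Gene ID 14585, chromosome 19, 58235581 to 58455946, minus strand), the co-receptor gene for GDNF, had overlapping groups. Its CPM values were 51.8, 40.4 and 55.6 in S3, S4 and S5 and 59.7, 43.1 and 57.5 in M2, M4 and M6. Each group held 1 low library, S4 and M4, and no label ties them to each other. The log2 fold change was 0.12 (SE 0.15, 95% interval -0.23 to 0.46, edgeR adjusted p = 0.847), and it was -0.005 without S4. Exons of Gm16277, an antisense gene, cover 7.6% of its exon bases, and without strand the reads of the 2 genes cannot be told apart there.

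Ret (Gene ID 19713, chromosome 6, 118151748 to 118197744, minus strand), the kinase that both co-receptors engage, varied more within the groups than between them. Its counts were 349, 312 and 113 in S3, S4 and S5 and 141, 255 and 347 in M2, M4 and M6, or 8.78, 9.80 and 3.62 CPM against 4.29, 7.98 and 10.3. The highest library exceeded the lowest 2.70-fold within the saline-sired group and 2.39-fold within the methylphenidate-sired group. The group means were 7.40 ± 3.31 and 7.51 ± 3.02 CPM (SD, n = 3), with a log2 fold change of 0.02 (SE 0.40, 95% interval -0.89 to 0.93, edgeR adjusted p = 0.993). That interval includes changes of almost 1 on the log2 scale in either direction. The sign turned with the libraries included, from -0.29 without S5 to 0.32 without M2. The value was 0.75 with the cortical and 0.69 with the choroid plexus markers as covariate, and 1.05 without S3 and S4, where S5 alone is set against 3 libraries. The edgeR adjusted p was 0.994, 0.942 and 0.928 in the same order.

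The libraries low in Ret were also low in some other transcripts on the lists. Pvalb, which marks parvalbumin interneurons, was at 29.9, 40.2 and 12.5 CPM in S3, S4 and S5 and at 12.5, 29.1 and 34.2 in M2, M4 and M6. Ngfr, which encodes the low-affinity neurotrophin receptor p75, was at 4.45, 11.7 and 3.34 CPM and at 1.80, 7.17 and 6.51. The 7 oligodendrocyte markers summed to 8057, 11370 and 6096 CPM and to 6274, 8095 and 8513. In each of these, S5 and M2 were the lowest of the 6 libraries, as they were for Ret. They were the 2 lowest in 6 of the 7 oligodendrocyte markers, but among the 9 striatal interneuron markers only in Pvalb. The other 8 interneuron markers summed to 382.6, 384.2 and 398.3 CPM and to 352.4, 393.3 and 383.3, so S5 was then the highest library. Among the astrocyte markers S5 and M2 were the 2 lowest libraries only in Gfap and Aldh1l1, and among the microglia markers only in Tmem119 and C1qa. How many of all genes had the same 2 lowest libraries was not counted, so these matches are a description only. The part of any cell type in the spread of Ret was not tested.

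Gdnf (Gene ID 14573, chromosome 15, 7810048 to 7837580, plus strand) had overlapping groups. Its counts were 159, 190 and 149 in S3, S4 and S5 and 172, 145 and 128 in M2, M4 and M6. These corresponded to 4.001, 5.97 and 4.78 CPM against 5.24, 4.54 and 3.79. The highest value of all was in S4 and the lowest in M6. The log2 fold change was -0.12 (SE 0.20, 95% interval -0.58 to 0.35, edgeR adjusted p = 0.893). The sign turned without S4, to 0.044 (SE 0.21), and with the cortical markers as covariate, to 0.21 (SE 0.29). The ratio of Gdnf to Gfra1 counts, ligand to co-receptor, was 0.0773, 0.148 and 0.086 against 0.0877, 0.105 and 0.0658, which overlap.

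Bdnf (Gene ID 12064, chromosome 2, 109674700 to 109727043, plus strand) had the largest fold change of the 7 and the widest spread in the saline-sired group. Its counts were 340, 69 and 331 in S3, S4 and S5 and 461, 402 and 478 in M2, M4 and M6. The corresponding CPM values were 8.56, 2.17 and 10.6 against 14.0, 12.6 and 14.1. S4 stood far below the other 5, while the methylphenidate-sired libraries lay close together, with a coefficient of variation of 6.41% against 61.9% in the saline-sired group. The means were 7.11 ± 4.41 and 13.6 ± 0.871 CPM (SD, n = 3), and the log2 fold change was 0.93 (SE 0.44, 95% interval -0.08 to 1.94, edgeR unadjusted p = 0.0663, adjusted p = 0.584). By limma-voom it was 1.19 (limma-voom unadjusted p = 0.0267, adjusted p = 0.476) and by DESeq2 0.94 (DESeq2 unadjusted p = 0.133). Without S4 the edgeR value was 0.51 (SE 0.14, edgeR unadjusted p = 0.00815, adjusted p = 0.602). Without S5 it was 1.34 (edgeR unadjusted p = 0.0226, adjusted p = 0.288). Without S3, M2, M4 or M6 in turn the edgeR unadjusted p lay between 0.0844 and 0.133. Without S3 and S4 the log2 fold change was 0.36. The last fit has 1 saline-sired library against 3, so its spread within groups comes from the methylphenidate-sired libraries alone and S5 is assumed to vary like them. Exons of Gm45346, an antisense gene, cover 14.4% of the Bdnf exon bases, so reads there may belong to either.

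The libraries stood in a similar order for Bdnf and for a cortical marker. Slc17a7, the vesicular glutamate transporter gene of cortical excitatory neurons, was at 337, 163 and 438 CPM in S3, S4 and S5 and at 540, 570 and 616 in M2, M4 and M6, so S4 was lowest for both genes. The part of cortical tissue in the Bdnf and Gfra2 values was not tested. The ratios and the fit that follow are given as a description. The ratio of Bdnf to Slc17a7 counts was 0.0254, 0.0133 and 0.0242 in S3, S4 and S5 and 0.026, 0.0221 and 0.023 in M2, M4 and M6, and the groups overlapped. In the fit that took the level of the cortical markers into account, the Bdnf log2 fold change was -0.37 (SE 0.30, edgeR adjusted p = 0.994; 0.288 to 0.994 over the alternatives). That level does not overlap between the groups, so the covariate and the sire's treatment cannot be told apart in this fit. For Gfra2 the ratio to Slc17a7 was 0.0769, 0.1 and 0.05 against 0.0607, 0.0534 and 0.061, which also overlap. Fos, an activity-induced gene, was at 3.27, 18.9 and 6.06 CPM in S3, S4 and S5 and at 25.1, 22.4 and 10.7 in M2, M4 and M6. Within the saline-sired group Fos was thus highest in S4, where Bdnf was lowest. Between the groups its log2 fold change was positive, as for Bdnf, at 1.05 (95% interval -0.27 to 2.37, edgeR adjusted p = 0.627). All 11 activity-induced genes had positive fold changes. The part of neuronal activity in the Bdnf values was not tested.

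**Figure D2:**
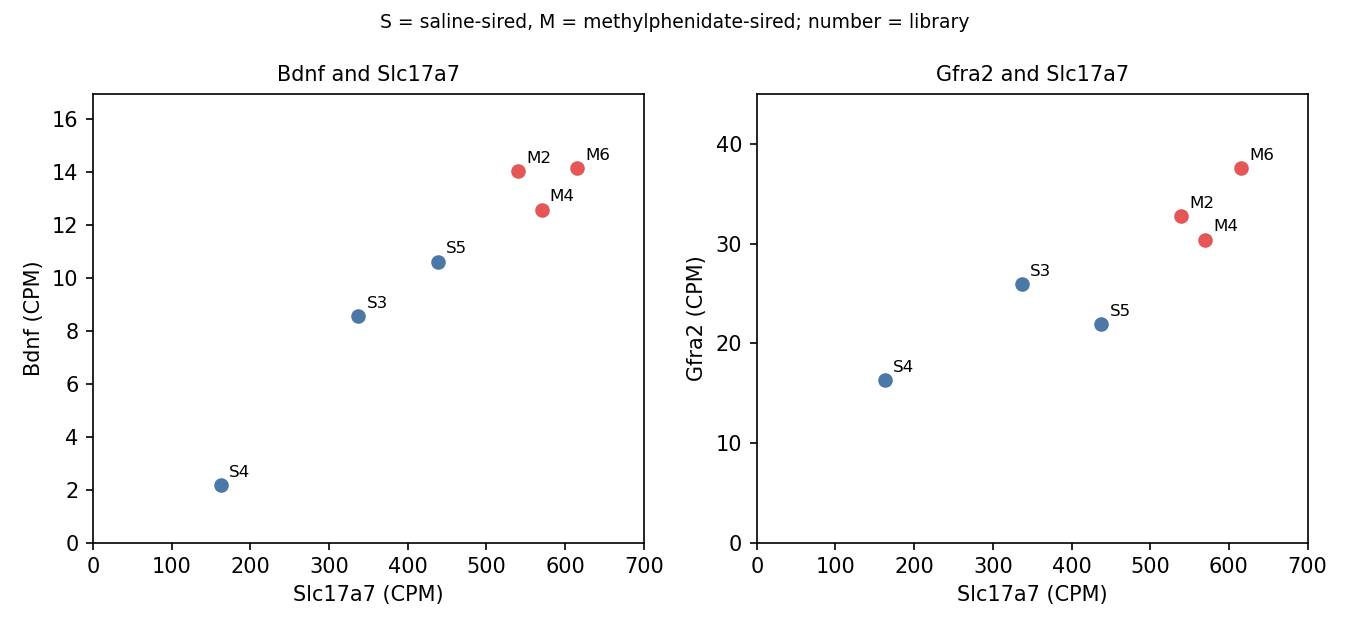
Bdnf (left) and Gfra2 (right) in CPM on the vertical axes against Slc17a7 in CPM on the horizontal axes, 1 point per library, all axes from 0. S4 is lowest on every axis, with Slc17a7 at 163 CPM, and the 3 methylphenidate-sired libraries are highest on every axis.

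Ntf3 (Gene ID 18205, chromosome 6, 126101412 to 126166772, minus strand) fell below the filter and was not tested in the main fit. It had 7, 0 and 6 counts in S3, S4 and S5 and 8, 8 and 12 in M2, M4 and M6. The 0 in S4 allows up to 0.0942 CPM (3 counts, counting error only), and the highest library was at 0.355 CPM. Summed over the groups there were 13 counts (exact Poisson 95% interval 6.92 to 22.2) and 28 (18.6 to 40.5), or 0.127 and 0.284 CPM. These intervals cover counting error only, and their overlap is not a test of the difference.

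The 2 Trk receptor genes were the steadiest of the 8. Ntrk2 (Gene ID 18212, chromosome 13, 58806472 to 59133970, plus strand) was at 690, 731 and 646 CPM in S3, S4 and S5 and at 666, 682 and 632 in M2, M4 and M6. Its log2 fold change was -0.06 (SE 0.07, 95% interval -0.22 to 0.09, edgeR adjusted p = 0.82). Ntrk3 (Gene ID 18213, chromosome 7, 78179986 to 78581034, minus strand) was at 177, 192 and 195 CPM against 192, 158 and 167, with a log2 fold change of -0.13 (SE 0.08, 95% interval -0.32 to 0.06, edgeR adjusted p = 0.684). In both genes the groups overlapped, and the highest library exceeded the lowest only 1.16-fold for Ntrk2 and 1.24-fold for Ntrk3. Both genes give full-length receptors and truncated forms without the kinase, and counts per gene do not separate them. The ratio of Bdnf to Ntrk2 counts, ligand to receptor, was 0.0124, 0.00296 and 0.0164 in S3, S4 and S5 and 0.0211, 0.0184 and 0.0224 in M2, M4 and M6, with no overlap. Because Ntrk2 varied so little, this ratio mostly repeats the Bdnf values, whose groups did not overlap either.

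**Figure D3:**
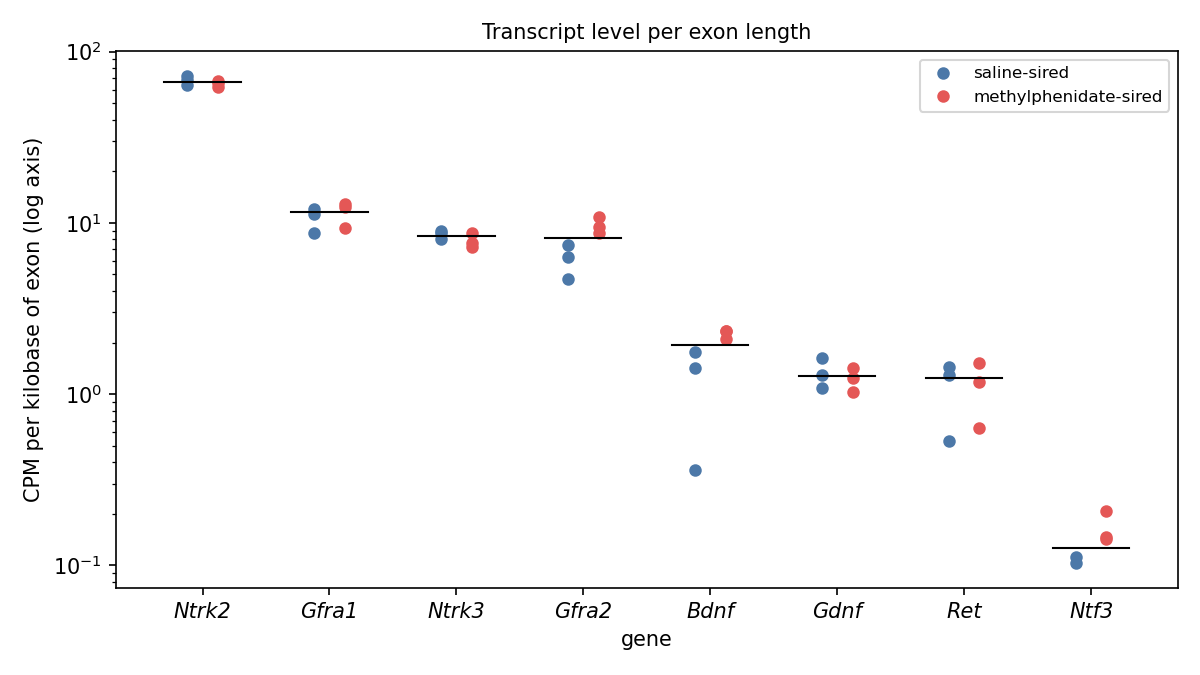
CPM per kilobase of exon (vertical log axis) of the 8 genes in order of their median (horizontal axis), 1 point per library coloured by group and a black line at the median of the 6 libraries. Ntrk2 stands highest, at a median of 66.5, and Ntf3 lowest, at 0.127, where the saline-sired library with 0 counts cannot be drawn on a log axis.

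To compare genes with each other, CPM was divided by the length in kilobases of the exons of the GENCODE M21 transcripts matched to RefSeq mRNAs. Ntrk2 was the most abundant transcript, with a median of 66.5 CPM per kilobase over the 6 libraries and a range of 62.4 to 72.2 that no other member reached. Gfra1 (median 11.6), Ntrk3 (8.41) and Gfra2 (8.11) followed, and the neighbours in this order overlapped in range. Bdnf (1.93), Gdnf (1.27) and Ret (1.24) came next, with overlapping ranges between neighbours, and Ntf3 was lowest at 0.127. The receptor and co-receptor genes other than Ret thus lay above all 3 ligand genes per length of exon. The place of Ntrk3 depends on the exons included: with all annotated exons its median was 6.1, below Gfra2 at 7.96, and with the longest transcript alone Ret (1.54) came before Gdnf (1.27).

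**Figure D4:**
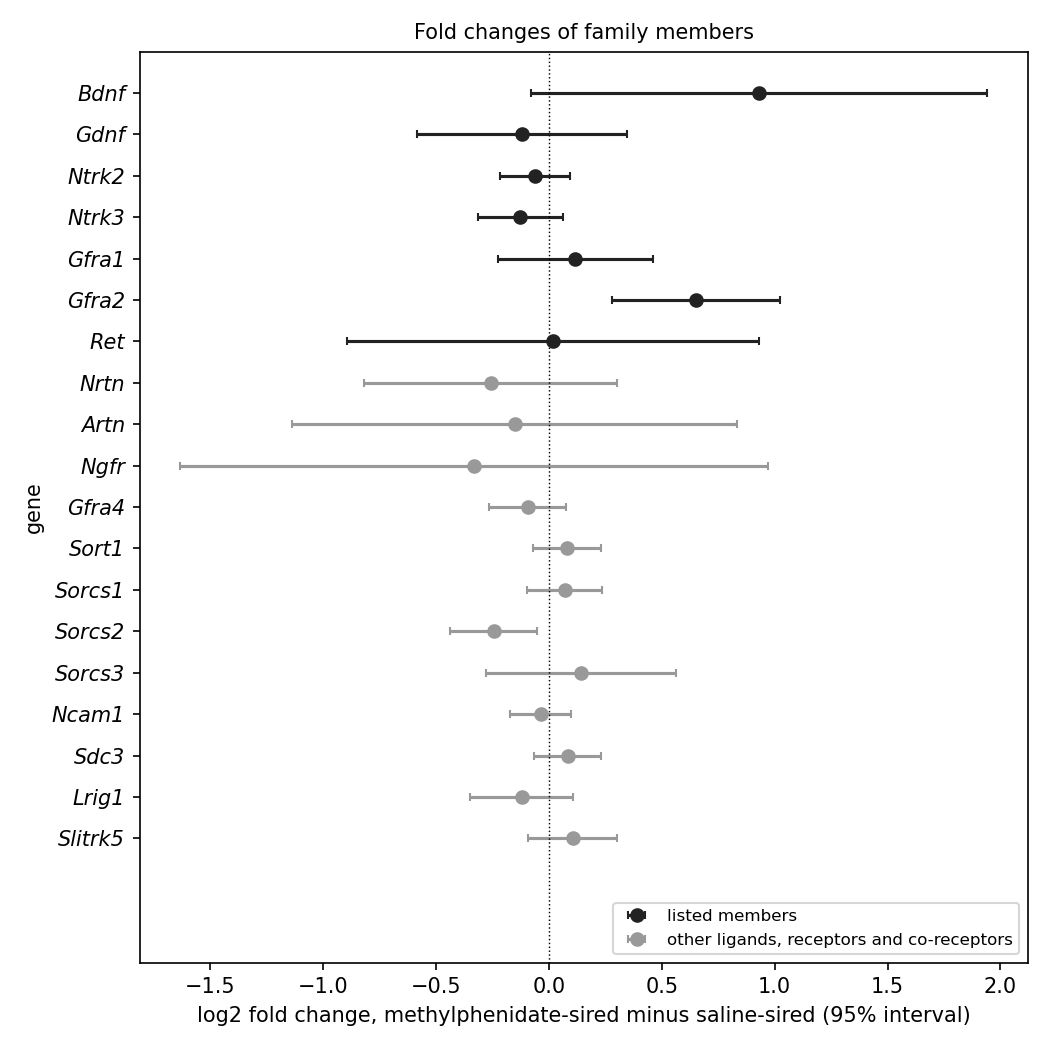
Log2 fold change, methylphenidate-sired minus saline-sired (horizontal axis), with 95% intervals from edgeR, for the 7 members tested (black) and 12 other ligand, receptor and co-receptor genes of the families (grey). Gfra2 at 0.65 and Sorcs2 at -0.25 have intervals that exclude 0 before adjustment, and neither passed after adjustment.

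Of 17 further ligand, receptor and co-receptor genes of the families, 14 passed the filter and 0 passed the test over all genes (edgeR; 0 by DESeq2 and 0 by limma-voom). Fold changes were positive in 6 and negative in 8, with a median of -0.07, and 1 had an unadjusted p under 0.05, in the lower direction, against 3.95% of all genes. That gene was Sorcs2, a sortilin-family receptor that binds the precursor of BDNF with p75. It was at 127, 127 and 137 CPM in S3, S4 and S5 and at 121, 110 and 98.0 in M2, M4 and M6, with no overlap and a log2 fold change of -0.25 (SE 0.08 and, by edgeR, adjusted p = 0.47). The related Sort1, which sorts BDNF to the regulated secretory pathway, had 0.08, Sorcs1 0.07 and Sorcs3 0.14. Among ligand genes, neurturin (Nrtn) had a log2 fold change of -0.26 and artemin (Artn) -0.15. Nrtn, the ligand that pairs with Gfra2, was at 3.17, 4.77 and 3.24 CPM in S3, S4 and S5 and at 3.04, 3.85 and 2.46 in M2, M4 and M6, which overlap. Its log2 fold change had a 95% interval of -0.82 to 0.30, and its difference from that of Gfra2 was not tested. Ngfr had -0.33 and Gfra4, the persephin co-receptor, -0.09. The GDNF-binding surface proteins Ncam1 and Sdc3 had -0.04 and 0.08, the receptor regulators Lrig1 and Slitrk5 -0.12 and 0.11. Ntf5 and Gfra3 fell below the filter, and persephin (Pspn) had 0 counts in all 6 libraries.

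Of 11 genes that process or transport neurotrophins, 10 were tested and 0 passed (edgeR; 0 by limma-voom, 1 by DESeq2 against 0.968% of all genes), with 5 positive and 5 negative (median 0.04). At an unadjusted p under 0.05 there were 3 higher, against 5.07% of all genes, and 1 lower, against 3.95%. Pcsk1, a prohormone convertase of secretory granules and the gene that DESeq2 called, was at 29.8, 26.9 and 27.4 CPM in S3, S4 and S5 and at 37.6, 36.7 and 40.4 in M2, M4 and M6, a log2 fold change of 0.45 (SE 0.08 and, by edgeR, adjusted p = 0.343). Cadps2, which promotes the release of dense-core vesicles that carry BDNF, was at 28.6, 16.3 and 41.1 CPM against 50.04, 45.3 and 65.7, a log2 fold change of 0.91 (SE 0.29 and, by edgeR, adjusted p = 0.47). Like Bdnf it was lowest in S4, and its ratio to Slc17a7 overlapped between the groups, at 0.0848, 0.1 and 0.0938 against 0.0927, 0.0795 and 0.107. Bsn, a scaffold of the active zone, had 0.24. Hap1, which links huntingtin to the transport of BDNF vesicles, had -0.17, the plasminogen activator gene Plat -0.02 and Mmp9, a protease that can cleave the BDNF precursor, -0.08. Plg, the gene of plasminogen, fell below the filter.

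All 39 genes of signalling below Trk and Ret were tested and 0 passed (edgeR, DESeq2 and limma-voom), with 18 positive and 21 negative and a median of -0.01. At an unadjusted p under 0.05 there were 4 higher and 2 lower, 6 of 39 against 9.02% of all genes. Among the lowest p values in the higher direction were those of Dok6, an adaptor that binds Ret and TrkC (0.29, SE 0.09), and of Sos2, which activates Ras (0.18, SE 0.06). Those in the lower direction were Akt2 (-0.15, SE 0.05), a kinase of the phosphoinositide pathway, the Ras gene Hras (-0.19, SE 0.07) and the docking protein gene Gab1 (-0.29, SE 0.16). In Dok6 the groups did not overlap, at 80.3, 87.0 and 100.4 CPM against 115.9, 107.4 and 103.9, and its edgeR adjusted p was 0.458.

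The genes most alike to each member over the 6 libraries were sought among 12668 genes by Pearson correlation of log2 CPM. The closest genes had high values for all 7 members. Each is the best of 12668 over only 6 libraries, where high values come easily, and they are given as a description. Gprin1 (r = 0.9976) and Plppr2 (0.9959) were closest to Bdnf, and St8sia5 (0.9928) and Tub (0.9898) to Gfra2. Cxxc4 (0.9988) and Pcdhb5 (0.9972) were closest to Gfra1, and Uqcc2 (0.994) and Mdh2 (0.9905) to Ret. For Ntrk2 they were Tmem265 (0.995) and the pseudogene Rps18-ps3 (0.9906), for Ntrk3 Zfp273 (0.9951) and Gstz1 (0.9941), and for Gdnf Wdr43 (0.9866) and Syne1 (0.9865). Gprin1, like Bdnf, was lowest in S4, at 34.0 CPM against 51.6 to 60.9 elsewhere, which follows from its choice as the gene closest to Bdnf. All values share the same libraries and depth.

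**Figure D5:**
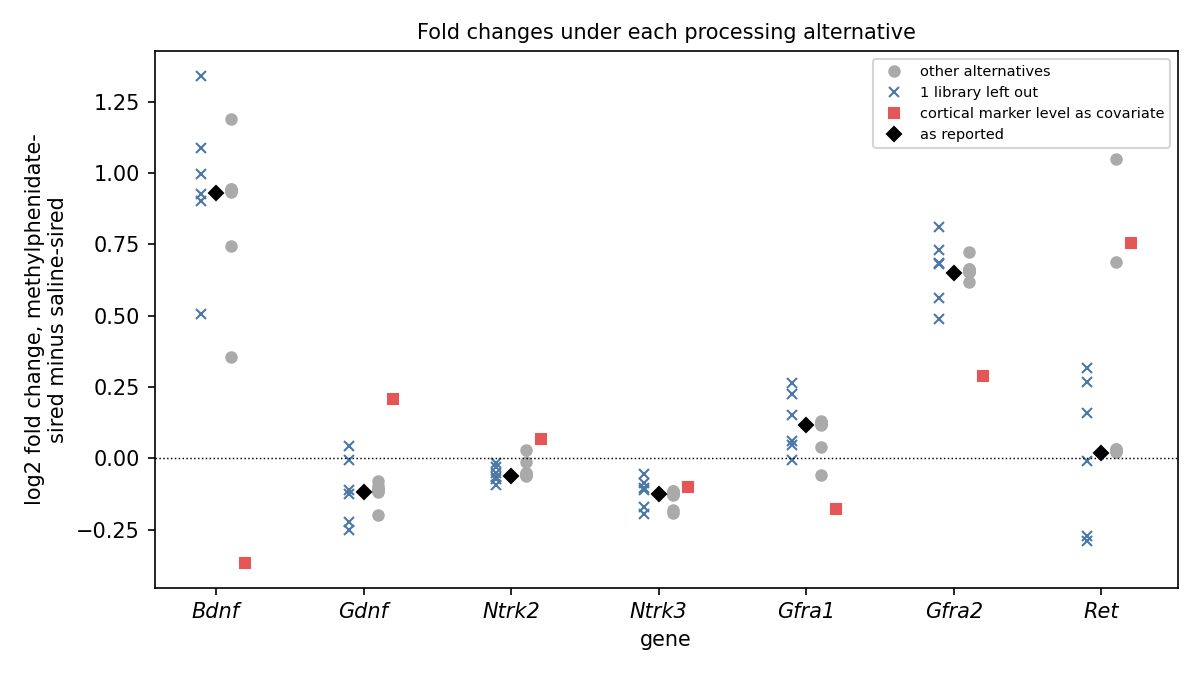
Log2 fold change of the 7 tested members (vertical axis) as reported (black diamonds), with 1 library left out (blue crosses), with the level of cortical markers as covariate (red squares) and under the other alternatives (grey circles). Gfra2 and Ntrk3 keep their sign under all 14 alternatives, and Bdnf changes sign with the cortical covariate, to -0.37.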

How the data were processed

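Striatal RNA-seq of 6 libraries, 3 per group, was used. The authors' deposited table gives whole-number read counts per RefSeq gene, not normalized. Per the submitters' processing notes the tools were bcl2fastq 2.20.0, Trimmomatic, HISAT2 2.1.0 and StringTie 2.1.3b with build mm10; their settings, the strandedness and the treatment of multi-mapped reads were not stated there. A further 12 per-sample columns were not used. Column names give a group, control or father (taken as the treated-sire group), and a number that differs from those of the labelled titles, so each column was tied to its group only.

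In R 4.3.3, edgeR 4.0.16 (TMM scaling, filterByExpr with a minimum count of 10, quasi-likelihood fit without covariates) gave the main test, with Benjamini-Hochberg adjustment over 17874 genes and a threshold of 0.05. SE values and 95% intervals were derived from its F statistics. DESeq2 1.42.0, limma-voom (limma 3.58.1), other scaling and filters, marker covariates and left-out libraries were alternatives. The edgeR script was tested on simulated data. Every pair of libraries differed by more than sampling noise (chi-square per gene 8.52 to 35.5). Log2 CPM used a prior count of 2. Coordinates and promoters are RefSeq GRCm38.p6; exon overlaps and lengths are GENCODE M21. By blastn 2.17.0, transcripts of the members had no near-identical copy (at least 95% identity over at least 200 bases) other than the overlapping antisense genes named in the text.

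The members and lists were chosen with earlier results of these data known. The rule named all members and the further ligand and receptor genes, of the other lists the 3 genes of lowest p in each direction, and the 2 genes most alike to each member among those with a mean log2 CPM of at least 1, predicted genes left out. The values of 3 genes that this rule named are not reported here, although the list counts include them. Pvalb, Fos, Slc17a7 and the ratios were chosen after their values were seen. The comparison of Ret with Ngfr and with the oligodendrocyte, astrocyte and microglia markers was likewise made with the Ret values known.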

Additional observations from a re-analysis of the deposited data

How the results depend on the processing

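No paired analysis was possible because the columns carry animal numbers other than those of the titles, and the groups share only 1 number. Ntf3 was below the filter of the main fit and has no fitted value here. It entered the fits without the low-count filter, where 0 of 8 members passed, and without S3 and S4. Its fold changes there are not given. Of all genes, 4 passed as reported, 173 with DESeq2, 0 with the cortical marker covariate (629 at an unadjusted p under 0.05), 2 with the choroid plexus covariate, 0 without S3 and S4 (958 at an unadjusted p under 0.05, with 1 library against 3, where the lone library is assumed to vary like the others), and 1 to 4 without each library in turn, the 1 without M6. DESeq2 called 1 member, Gfra2 (0.65, DESeq2 adjusted p = 0.0139), and 1 processing gene, Pcsk1, where edgeR called 0. The cause of these differences was not tested. With the cortical covariate the log2 fold change was -0.37 (SE 0.30) for Bdnf, 0.21 (SE 0.29) for Gdnf, 0.067 (SE 0.09) for Ntrk2 and -0.18 (SE 0.19) for Gfra1. Each was of the opposite sign to the reported value. That covariate does not overlap between the groups and cannot be told apart from the sire's treatment. Without S3 and S4 the log2 fold change was 0.03 for Ntrk2 and -0.057 for Gfra1, also of opposite sign, and 1.05 for Ret. Without each library in turn the values ran from 0.51 to 1.34 for Bdnf, -0.25 to 0.044 for Gdnf, -0.005 to 0.26 for Gfra1, 0.49 to 0.81 for Gfra2 and -0.29 to 0.32 for Ret; Ret was -0.01 without M4 and -0.27 without M6. RLE scaling moved the median of all genes only from -0.01 to -0.009. Depth limits Ntf3, at most 12 counts in a library.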
